A study of Mus musculus with 6 samples.

Results

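The Nedd4 family of ubiquitin ligases was examined in ATAC-seq data from monocytic myeloid-derived suppressor cells (M-MDSCs) of mouse tumors. The family comprised 9 genes, Nedd4, Nedd4l, Itch, Wwp1, Wwp2, Smurf1, Smurf2, Hecw1 and Hecw2, among 21951 protein-coding genes of the annotation (GENCODE M21 on mm10). A peak belonged to a member when it overlapped the gene body or the 20 kb on either side by at least 1 base. By this rule 17 of the 11800 deposited peaks belonged to the family. These peaks lay at 5 members, and 4 members had no peak.

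M-MDSCs were sorted as CD11b+Ly-6Chi Ly-6G- cells from orthotopic Hepa 1-6 liver tumors, which are grown from a mouse hepatoma line injected into the liver. The mice were young adult C57BL/6 J females, labelled wild type (WT), and each group had 2 libraries, labelled Vehicle, MS275 (MS-275, also called entinostat) and CXD101. The study describes both compounds as inhibitors of HDAC1-3, class I histone deacetylases, which are enzymes that take acetyl groups off histones. Both were injected into the peritoneum. The labels do not say whether a library came from 1 mouse or from pooled mice. ATAC-seq reads come from DNA that a transposase could reach, so a peak in a comparison is a site where 1 group was more accessible than the other. The authors pooled the 2 libraries of a group before calling, and no value per library was used here. No difference below therefore has a replicate check, and the interval given with a tag count covers counting error only. The 6 lists were MS-275 over vehicle (gained, 8480 peaks), CXD101 over vehicle (gained, 284 peaks), vehicle over MS-275 (lost, 691 peaks), vehicle over CXD101 (lost, 693 peaks), MS-275 over CXD101 (1650 peaks) and CXD101 over MS-275 (2 peaks). The 3 pooled groups had similar depths, with ratios of 1.14 for each inhibitor to vehicle and 1.01 for MS-275 to CXD101.

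Ubiquitin is passed from an activating enzyme (E1) to a conjugating enzyme (E2) and then to a substrate chosen by a ligase (E3). Ligases of the HECT type carry ubiquitin on a cysteine of their own before they hand it on. Members of the Nedd4 family join a C2 domain, which binds membranes, to WW domains, which bind proline-rich motifs in substrates and adaptors, and to the catalytic HECT domain. They mark membrane receptors and signalling proteins for endocytosis or degradation. In the study, Nedd4 was taken up as a ligase for the chemokine receptor CCR2, which guides monocytes to tumors.

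The sequences under the peaks show how unlike each other these sites were. They are given on the plus strand of GRCm38 (mm10), 5′ to 3′, and capitals mark matches on either strand to 1 of 11 short motifs that were searched. The sites at the start of Nedd4 were chosen because both inhibitors had a gained peak there. The first is the stretch around the MS-275 gained summit up to the end of its peak (chr9:72662192-72662337), where the capitals are GC boxes (GGGCGG, bound by Sp and Klf factors). The next is the peak of MS-275 over CXD101 (chr9:72662011-72662239), which lies inside the same MS-275 gained peak and has a further GC box. The stretches overlap, and the last bases of this one are those that open the first.
Nedd4, MS-275 gained: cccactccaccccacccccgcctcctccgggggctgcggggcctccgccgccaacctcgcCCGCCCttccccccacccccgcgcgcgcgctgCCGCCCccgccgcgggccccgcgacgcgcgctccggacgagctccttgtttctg
Nedd4, MS-275 over CXD101: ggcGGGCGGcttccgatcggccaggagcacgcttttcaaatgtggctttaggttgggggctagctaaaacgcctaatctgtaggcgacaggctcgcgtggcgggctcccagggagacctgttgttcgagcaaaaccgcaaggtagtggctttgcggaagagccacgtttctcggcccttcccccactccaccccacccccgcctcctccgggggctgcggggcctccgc
The sites in Smurf1 were chosen because no other member lost accessibility. Both summits of the MS-275 lost peak are shown with 100 bases on either side (chr5:144898406-144898606 and chr5:144898685-144898885). The capitals mark the AP-1 motif TGANTCA in both, and a GC box in the first.
Smurf1, MS-275 lost, first summit: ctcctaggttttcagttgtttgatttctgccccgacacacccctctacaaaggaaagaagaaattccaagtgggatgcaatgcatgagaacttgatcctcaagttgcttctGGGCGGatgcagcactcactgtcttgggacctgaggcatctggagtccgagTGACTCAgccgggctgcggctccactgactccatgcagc
Smurf1, MS-275 lost, second summit: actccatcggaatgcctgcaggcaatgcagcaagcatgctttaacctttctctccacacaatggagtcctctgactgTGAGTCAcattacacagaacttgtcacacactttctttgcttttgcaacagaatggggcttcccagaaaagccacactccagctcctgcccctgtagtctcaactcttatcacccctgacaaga
The last set holds the intronic sites of Wwp2 and Hecw2 that had the highest significance among the gained peaks of each gene, together with the Wwp2 site that differed between the inhibitors. The capitals mark an E-box (CACGTG) and a GC box in the first (chr8:107522359-107522559), the CCAAT box in the second (chr1:53818404-53818609), and a RUNX motif (TGTGGT) and a GC box in the third (chr8:107503339-107503548).
Wwp2, MS-275 gained: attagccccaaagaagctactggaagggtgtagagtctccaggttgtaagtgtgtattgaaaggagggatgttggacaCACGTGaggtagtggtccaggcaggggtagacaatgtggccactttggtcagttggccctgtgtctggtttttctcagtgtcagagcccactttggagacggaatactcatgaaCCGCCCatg
Hecw2, MS-275 gained: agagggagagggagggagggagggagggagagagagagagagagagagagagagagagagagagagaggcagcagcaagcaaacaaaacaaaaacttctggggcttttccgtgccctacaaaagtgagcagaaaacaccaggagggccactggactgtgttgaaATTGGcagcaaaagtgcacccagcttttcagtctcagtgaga
Wwp2, MS-275 over CXD101: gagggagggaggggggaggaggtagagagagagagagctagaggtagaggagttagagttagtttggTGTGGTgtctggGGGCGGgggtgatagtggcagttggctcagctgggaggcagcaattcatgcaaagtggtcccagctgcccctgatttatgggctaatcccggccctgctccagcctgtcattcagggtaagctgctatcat

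The first question was which members gained or lost accessible sites with each inhibitor. With MS-275, 4 of 9 members had gained peaks, Nedd4 with 1, Nedd4l with 1, Wwp2 with 6 and Hecw2 with 3. With CXD101, Nedd4 alone had a gained peak. Smurf1 was the only member with lost peaks, 2 with MS-275 and 1 with CXD101. In the direct comparison, MS-275 exceeded CXD101 at Nedd4 and at Wwp2, with 1 peak each, and no member had a peak of CXD101 over MS-275.

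**Figure D1:**
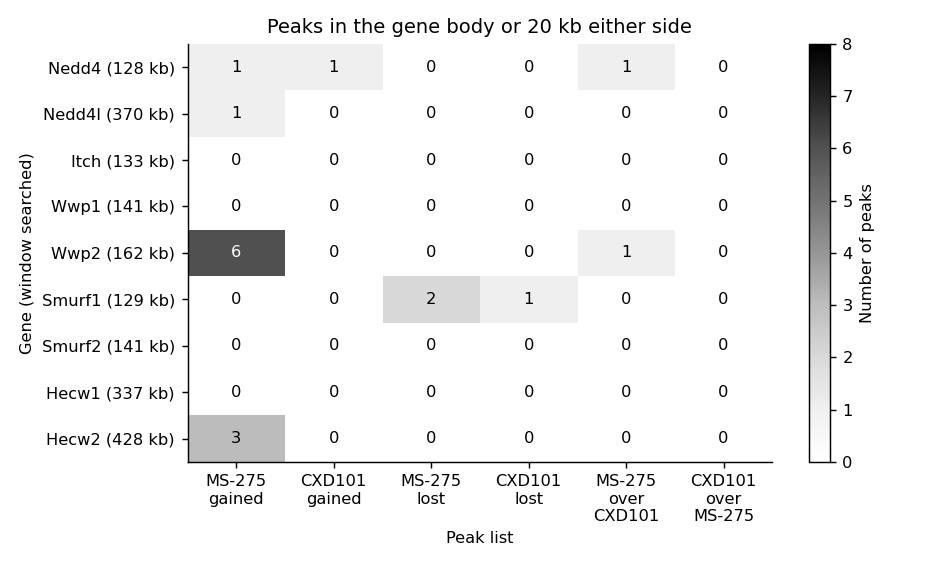
Number of peaks of each list (columns) in the window of each member (rows, window length in kb), with the count printed and shaded. Wwp2 held 6 of the 11 MS-275 gained peaks, both kinds of lost peak lay at Smurf1, and the rows of Itch, Wwp1, Smurf2 and Hecw1 are 0 throughout.

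These counts were read against all protein-coding genes, of which 18.6% had an MS-275 gained peak in the same window. The 4 of 9 members make 44.4% (95% Wilson interval 18.9 to 73.3), but the members are long genes, with a median of 101 kb against 17.4 kb, and a long gene offers more room for a peak. Among the 2897 protein-coding genes at least as long as the shortest member, 39.0% had an MS-275 gained peak. Per Mb of window the family held 5.59 MS-275 gained peaks (95% exact Poisson interval 2.79 to 10.0), against 4.71 over all protein-coding genes and 4.00 over the long ones. The gain at the family was thus close to the background of long genes, and nothing in the count sets the family apart.

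The other lists gave counts of 1 or 2 members. A CXD101 gained peak was found at 0.961% of protein-coding genes and 2.90% of the long ones, and at 1 of 9 members (11.1%, 95% Wilson interval 1.99 to 43.5). An MS-275 lost peak was found at 2.90% and 5.59% of these genes, and a CXD101 lost peak at 3.62% and 5.56%, each against 1 of 9 members. MS-275 exceeded CXD101 at 6.62% and 12.2% of these genes, against 2 of 9 members (22.2%, 6.32 to 54.7). With no family peak of CXD101 over MS-275, a count of 0 allows up to 1.52 peaks per Mb of window at 3 counts, and the 95% exact Poisson interval reaches 1.87. That list held 2 peaks in all, and the windows of protein-coding genes held 0.00154 per Mb. The count of 0 therefore says nothing about the family. The CXD101 gained count rests on Nedd4 alone, the gene that the study took up. The members were chosen with earlier results of these data known, and genes are not replicates. The intervals are therefore no test of the family against these shares.

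Nedd4, the founding member, was the only one with gained peaks for both inhibitors, and both lay just before its start. The gene (ENSMUSG00000032216.14) runs over 87.5 kb of the plus strand (chr9:72662346-72749852). In the MS-275 gained list, the peak chr9:72661967-72662337 had its summit 54 bp before the annotated start, with 60 MS-275 tags (95% exact Poisson interval 45.8 to 77.2). At the depth of the vehicle group these were 52.5 tags (40.0 to 67.5) over a vehicle level of 18. The fold enrichment, which is the ratio of the 2 pileups after 1 is added to each, was 2.81, with a −log10 q-value of 7.29. The MS-275 peak stood at place 3978 of 8480 when the list was ordered by significance, near its middle.

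In the CXD101 gained list, the peak at Nedd4 (chr9:72662055-72662287) was shorter and had its summit 151 bp before the start. It had 50 CXD101 tags (37.1 to 65.9), or 44.0 at vehicle depth (32.6 to 58.0), over a vehicle level of 17.6. The fold enrichment was 2.42 and the −log10 q-value 3.32, at place 212 of 284. Both comparisons used the same vehicle libraries, so they are not independent, and the summits were 97 bp apart. The intervals of the MS-275 and CXD101 tags overlapped at vehicle depth, although they refer to bases that differ.

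The direct comparison nevertheless listed a peak of MS-275 over CXD101 at Nedd4 (chr9:72662011-72662239), with its summit 283 bp before the start and a fold enrichment of 1.77. There, 50 MS-275 tags (37.1 to 65.9) stood over a CXD101 level of 27.6, or 43.7 over 24.3 at vehicle depth. With a −log10 q-value of 1.48 at place 1598 of 1650, it was among the least significant peaks of that list. The 3 summits were thus spread over the last 283 bp before the gene, with the summit of the direct peak furthest from the start. The direct peak itself lay with all of its 229 bp inside the MS-275 gained peak. It overlapped the CXD101 gained peak by 185 bp and covered its summit. Peaks in the 5 kb before a start site were found at 5.91% of protein-coding genes for MS-275 gained, 0.241% for CXD101 gained and 1.54% for MS-275 over CXD101. Counting every annotated start site, Nedd4 was 1 of 2, 1 of 1 and 1 of 2 members with such a peak, and the other member was Wwp2.

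**Figure D2:**
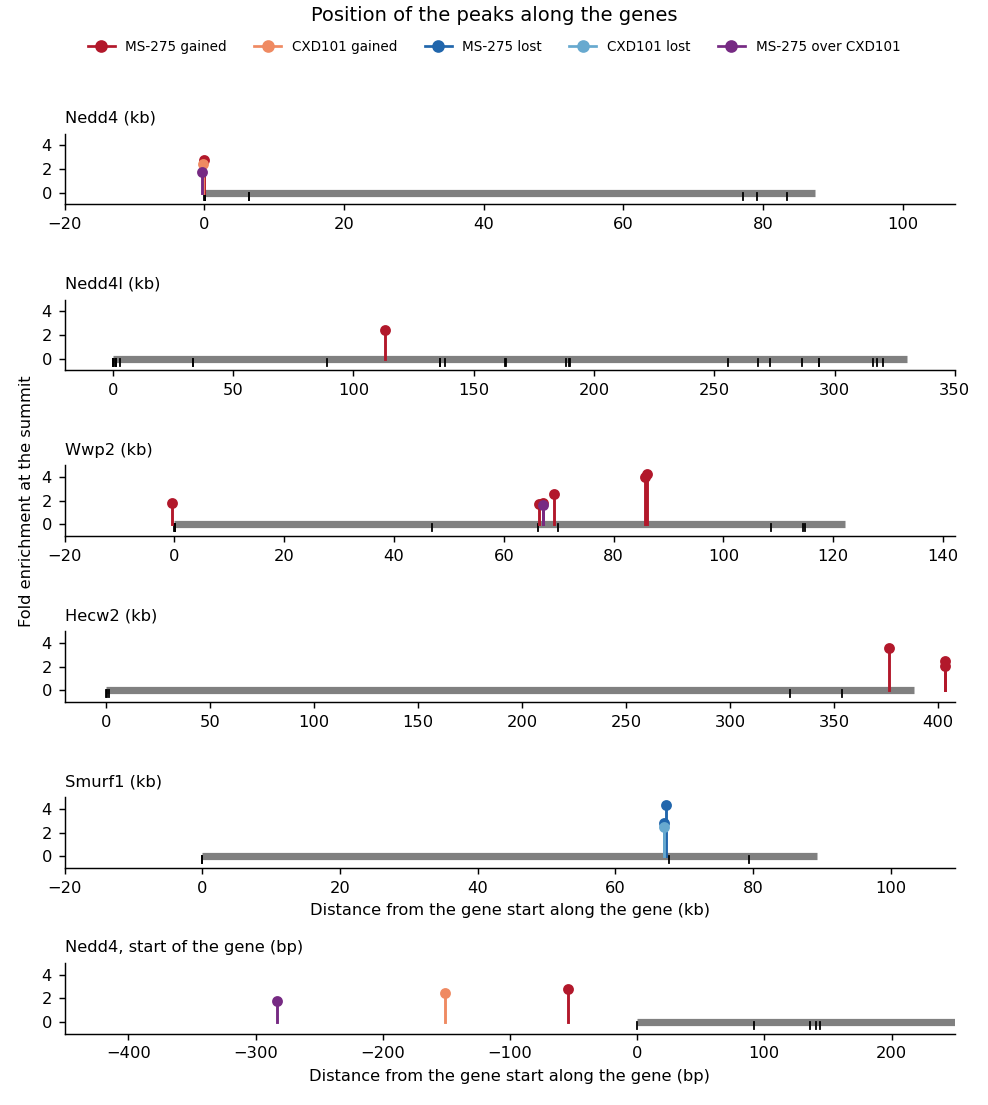
Fold enrichment at the summit of each peak (vertical axis) by distance from the gene start along the direction of transcription (horizontal axis, kb; bp in the bottom panel). Grey bars are the genes, black ticks annotated start sites and colors the lists. At Nedd4 all summits lie within 283 bp before the start, while those of Nedd4l, Hecw2 and Smurf1 lie inside or beyond the gene, far from its start.

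Wwp2, which is closest to Itch and Wwp1 in its domains, held more peaks than any other member. The gene (ENSMUSG00000031930.11) runs over 122 kb of the plus strand (chr8:107436365-107558595). The 6 MS-275 gained summits had fold enrichments from 1.71 to 4.29, with 26.2 to 101 MS-275 tags at vehicle depth over vehicle levels of 5.84 to 59.0. The most significant summit lay in an intron 86.1 kb into the gene, with 45 tags (32.8 to 60.2), or 39.3 over a vehicle level of 8.4. It had a fold enrichment of 4.29 and stood at place 2249 of 8480. It shared its interval (chr8:107521940-107522578) with another summit 408 bp away, which had 30 tags (20.2 to 42.8), or 26.2 over 5.84, and a fold enrichment of 3.98. The nearest start site of Wwp2 was 15830 bp from this pair.

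The other Wwp2 peaks rose from a higher vehicle level and by a smaller factor. The summit nearest to a start site of the gene (chr8:107502723-107502927) lay 254 bp after the start of an intronic transcript that is annotated as processed and without a coding sequence. It had 116 tags (95.9 to 139), or 101 over a vehicle level of 59.0, the most tags at any family summit, and a fold enrichment of 1.71. A site 661 bp further on (chr8:107503335-107503537) had 93 tags (75.1 to 114), or 81.3 over a vehicle level of 45.0, and a fold enrichment of 1.79. The peak before the main start (chr8:107435932-107436206), picked out here after its values were seen, had its summit 372 bp upstream. With 51.6 tags at vehicle depth over a vehicle level of 28.4 and a −log10 q-value of 1.77, it stood at place 8107 of 8480, and 95.6% of the list was at least as significant. In fold terms, Wwp2 thus gained most where vehicle cells had little signal and least at sites that were already accessible. The threshold itself asks for a larger fold at a lower level. An MS-275 gained call needed 16.6 tags at a vehicle level of 5.84 and 89.2 tags at 59.0, both at vehicle depth. For a CXD101 gained call at these sites, the fold needed was 2.85 and 1.56.

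At the site 67.1 kb into Wwp2, MS-275 also exceeded CXD101, and both lists had their summit at the same base. The peak of MS-275 over CXD101 (chr8:107503339-107503548) had 93 MS-275 tags over a CXD101 level of 55.2. Its fold enrichment was 1.66 and its −log10 q-value 2.78. The values of the gained peak had 2 solutions, and the one with the tags of the direct peak was taken. The equal tags are therefore no check, and the gained peak's vehicle level of 45.0 rests on that choice. At vehicle depth the 3 groups stood at 45.0 for vehicle, 48.5 for CXD101 and 81.3 for MS-275. The vehicle and CXD101 values are upper estimates, since the control level of the caller is the highest of several local averages. No CXD101 gained or lost peak was listed at Wwp2.

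Hecw2, a long member known mainly from neurons, had the family peak with the highest significance. The gene (ENSMUSG00000042807.15) covers 388 kb of the minus strand (chr1:53806876-54195168). An intronic MS-275 gained peak near its far end (chr1:53818404-53818609) had 87 tags (69.7 to 107), or 76.1 (60.9 to 93.8) over a vehicle level of 20.6. The fold enrichment was 3.57 and the −log10 q-value 16.2, at place 685 of 8480, within the first 8.08% of the list. Its nearest start site of the gene was 22672 bp away. In the soft-masked genome, 52.7% of the 201 bases around the summit were marked as repeats, mostly the run of ga repeats printed above, and at 8.64% of the MS-275 gained peaks at least 50% of bases were so marked.

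The other Hecw2 summits lay beyond the end of the gene and are attached to it only by the window. Their interval (chr1:53791586-53791981) lay over Gm37863, an unconfirmed gene model, and its summits were 6448 and 6707 bp from the start of Stk17b, a kinase gene. The first had 67 tags (51.9 to 85.1), or 58.6 over a vehicle level of 22.8, with a fold enrichment of 2.50. The second had 52 tags (38.8 to 68.2), or 45.5 over 21.4, with a fold enrichment of 2.07. No peak of any list lay in the 5 kb before a start site of Hecw2.

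Nedd4l, the closest relative of Nedd4 and a regulator of epithelial sodium channels, had a single peak. The gene (ENSMUSG00000024589.17) covers 330 kb of the plus strand (chr18:64887705-65217828). The MS-275 gained peak (chr18:65000724-65000937) lay in an intron 113 kb from the gene start and 22662 bp from the nearest of its start sites, under the antisense gene AC102333.1. It had 57 tags (43.2 to 73.9), or 49.8 over a vehicle level of 20.2, a fold enrichment of 2.40 and a −log10 q-value of 4.70. ATAC-seq does not read a strand, so a site shared by a gene and its antisense partner cannot be given to either.

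Smurf1, a regulator of TGF-beta and BMP signalling, was the only member that lost accessibility, and it had a lost peak with each inhibitor. The gene (ENSMUSG00000038780.14) covers 89.4 kb of the minus strand (chr5:144876495-144965847). The MS-275 lost peak (chr5:144898366-144898972) had a first summit with 56 vehicle tags (42.3 to 72.7) over an MS-275 level of 12.2 at vehicle depth, and a fold of 4.30 for vehicle over MS-275. With a −log10 q-value of 14.4 it stood at place 71 of 691. Its second summit had 58 vehicle tags (44 to 75) over an MS-275 level of 20.1, a fold of 2.79 and place 288.

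The CXD101 lost peak (chr5:144898718-144898946) covered only the second of these sites, with its summit 32 bp from it. It had 56 vehicle tags (42.3 to 72.7) over a CXD101 level of 22.0, a fold of 2.48 for vehicle over CXD101 and place 360 of 693. At the second site the levels were therefore 20.1 for MS-275 and 22.0 for CXD101. At the first site CXD101 had no lost peak, although a CXD101 level of up to 32.3 would have been called by its p-value at the 56 vehicle tags. The direct lists held no peak at Smurf1, so a difference between the inhibitors at the first site was not called. All 3 summits lay in an intron of the longer transcripts, 512 to 823 bp before the start of Smurf1-205, a shorter protein-coding transcript, and about 67 kb from the start of the gene itself.

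**Figure D3:**
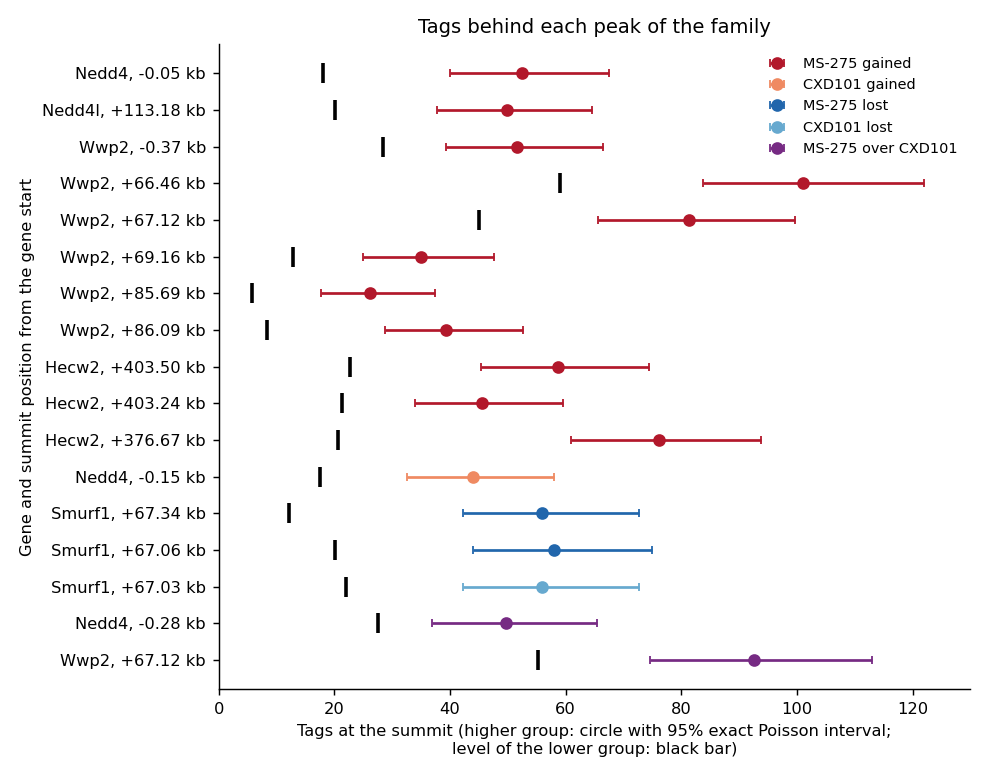
Tags at the summit of each of the 17 family peaks, labelled by gene and by distance from the gene start. Circles give the higher group with its 95% exact Poisson interval, scaled to the depth of the lower group, black bars give the level of the lower group, and colors give the list. In each row the bar lies below the interval, which is no finding, since a peak is listed only when its tags far exceed that level. The widest gap is at the intronic Hecw2 site (76.1 over 20.6).

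Itch, Wwp1, Smurf2 and Hecw1 had no peak in any list. Itch (ENSMUSG00000027598.16, chr2:155133509-155226855), a ligase that restrains T cell activation, was 421 kb from the nearest MS-275 gained peak, at Chmp4b. Wwp1 (ENSMUSG00000041058.15, chr4:19608303-19708993) was 119 kb from the nearest one, and Hecw1 (ENSMUSG00000021301.9, chr13:14226438-14523228) was 117 kb from it. For Smurf2 (ENSMUSG00000018363.16, chr11:106820066-106920715), the partner of Smurf1, the distance was 40.9 kb, to a peak at Kpna2. The lists hold differences only, so these genes may be open in all groups or closed in all of them. At the median vehicle level of MS-275 gained peaks (15.8), a call needed 32.4 MS-275 tags at vehicle depth, a fold of 1.99. For CXD101 it needed 34.3 tags at a level of 16.0, a fold of 2.08. The vehicle level at these 4 genes is not in the lists, so the smallest change that could have been called there is not known.

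None of the 11 MS-275 gained summits lay inside a CXD101 gained peak. That list held only 284 peaks, against 8480 for MS-275. The share over all MS-275 gained summits was not computed, so the count says nothing about the family. At Nedd4 the gained peaks of both inhibitors overlapped by 233 bp. The next question was how much CXD101 signal could have stayed uncalled. At each summit, the fewest CXD101 tags for a gained call and the highest CXD101 level for a call of MS-275 over CXD101 were computed, with a −log10 p-value of 4.50 and 3.88 as the limit, which were the lowest in these lists. All values are given at vehicle depth. At the Nedd4 summit next to the start, which lay just beyond the end of the CXD101 gained peak, a gained call needed 37.8 CXD101 tags and a direct call a CXD101 level of at most 31.4. At Nedd4l the limits were 40.5 and 29.4. At the most significant Wwp2 site they were 22.9 and 21.6, beside 39.3 tags for MS-275 and a vehicle level of 8.4.

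At the Wwp2 peak before the main start the limits were 52.8 and 30.8, beside an MS-275 value of 51.6. At the Wwp2 site 66.5 kb into the gene they were 92.3 and 71.0, beside a vehicle level of 59.0 and 101 MS-275 tags. At the downstream Hecw2 summits they were 44.9 and 36.2, and 42.2 and 26.1. For the intronic Hecw2 site the limits crossed, since 41.3 CXD101 tags were enough for a gained call and a level up to 50.1 for a direct call, yet neither list holds the site. A peak must also span 200 bp and its control level may exceed the pileup at the base, so the p-value at 1 base does not decide a call, and the limits give no CXD101 level at any of these sites. A site missing from the CXD101 gained list is therefore not shown to be unchanged with CXD101.

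**Figure D4:**
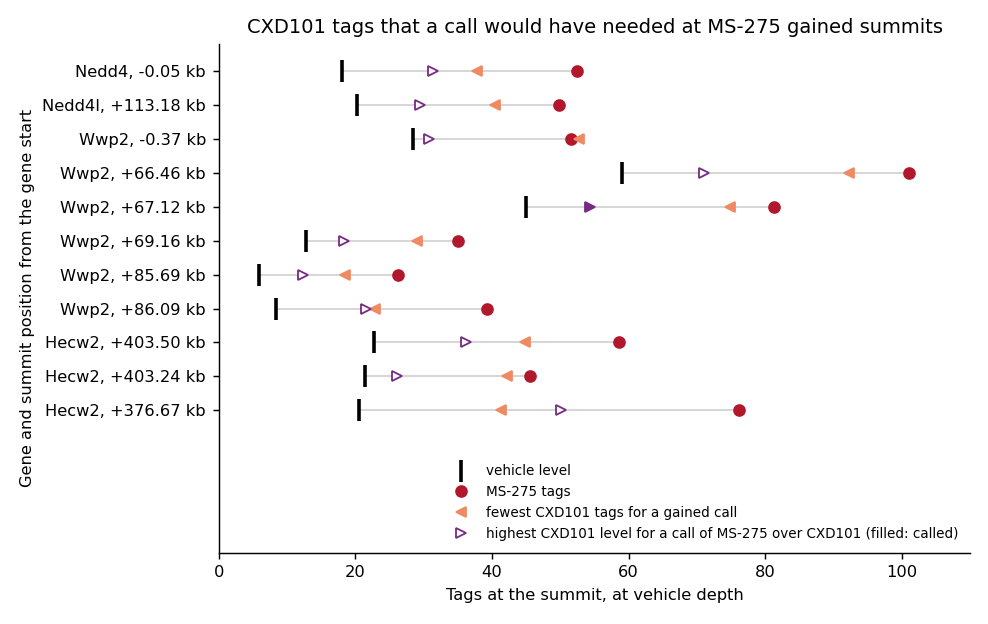
Tags at the 11 MS-275 gained summits of the family at vehicle depth: vehicle level (black bar), MS-275 tags (circle), fewest CXD101 tags for a gained call (orange triangle) and highest CXD101 level for a call of MS-275 over CXD101 (purple triangle, filled where called). The purple triangle lies left of the orange one except at the intronic Hecw2 site (50.1 and 41.3), and the filled one is the Wwp2 site 67.1 kb into the gene.

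Base composition set Nedd4 apart from the other sites. Around its MS-275 gained summit, 80.1% of 201 bases were G or C and 29 CpG dinucleotides gave an observed over expected ratio of 1.04, higher than in 98.8% of the MS-275 gained list. The CXD101 gained summit had 74.6% and a ratio of 0.916, and the direct summit 60.2% and 0.825, higher than 94.0% and 96.1% of their lists. At the other 10 MS-275 gained summits the ratio was 0.0865 to 0.347, around the list's median of 0.213. The Wwp2 summit before the main start, at 0.326 and 43.3% G or C, lay on the flank of its promoter and not in the CpG-rich part. At Smurf1 the ratios of the lost summits were 0.351, 0.0924 and 0.186.

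**Figure D5:**
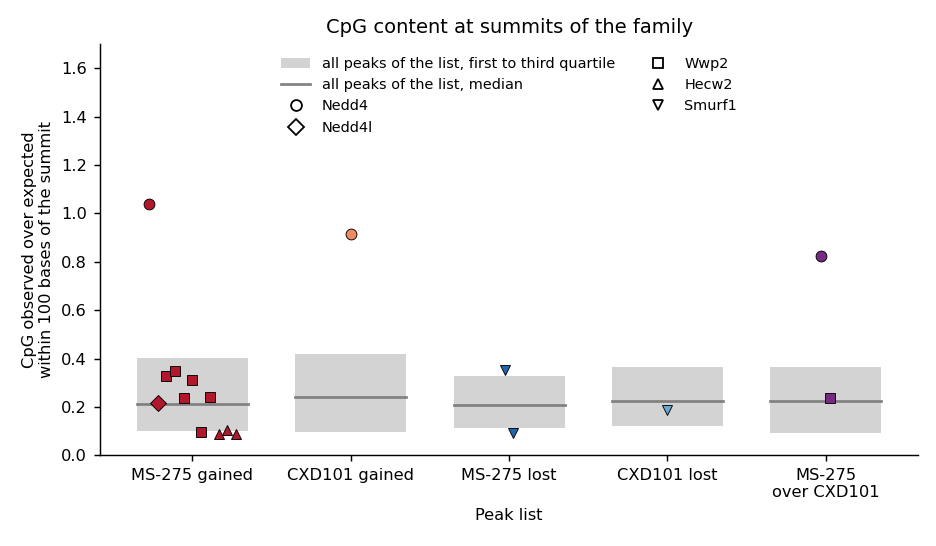
CpG observed over expected ratio in the 201 bases around each family summit (symbols by gene) beside the median and the interquartile range of all peaks of the same list (grey). The 3 Nedd4 summits, at 0.825 to 1.04, lie far above the grey boxes, and the Wwp2, Hecw2, Nedd4l and Smurf1 summits lie in or near them.

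The RefSeq promoter table (GRCm38.p6, 250 bases before to 50 after a start) held 6 promoters of 5 members. Their CpG ratios ran from 0.804 to 1.13, against a median of 0.384 over 32851 promoters. A CpG-rich start was therefore common to Nedd4, Wwp2, Smurf1, Smurf2 and Hecw2, whereas peaks over such a promoter were listed for Nedd4, in 3 lists, and for Wwp2, in 1. The RefSeq start of Nedd4 lay 15 bp before the GENCODE start, inside the MS-275 gained peak. GC boxes were in 5 of the 6 promoters and in 35.7% of all promoters. The second Nedd4 promoter, 30952 bp into the gene, had none and no peak.

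Of the 11 motifs, searched on both strands within 100 bases of the summit, the GC box matched 4 of the 11 MS-275 gained summits of the family and 10.6% of that list. The RUNX motif matched 4 (15.2% of the list), the CCAAT box 3 (20.6%), the IRF motif GAAANNGA 3 (16.2%) and the E-box 1 (2.96%). CCGGAAG (ETS), GAGGAAG (PU.1), TGANTCA (AP-1), TGACGTCA (CRE), TTGNNCAA (C/EBP) and GCGCANGCG (NRF1) matched none of them. At the MS-275 lost sites of Smurf1 the AP-1 motif matched both summits, the first match starting 62 bases from its summit. It was in 22.3% of MS-275 lost peaks and 4.55% of MS-275 gained peaks. With 50 bases on either side in place of 100, the share of the 16 distinct family summits with a match fell from 18.8% to 6.25% for the AP-1 motif, from 43.8% to 18.8% for the GC box, from 18.8% to 0% for the CCAAT box and from 25% to 6.25% for the RUNX motif. The CXD101 lost peak of Smurf1 holds the same AP-1 match as the second MS-275 lost summit.

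Genes that work with the family were then read from lists of other HECT ligases, adaptors, substrates, deubiquitinases and enzymes of the first steps. Among 18 HECT ligases of other families, 4 had MS-275 gained peaks (Hace1, Herc3, Trip12 and Ube3a), 1 a CXD101 gained peak (Trip12), 2 MS-275 lost peaks (Hectd4 and Herc1) and 1 a CXD101 lost peak (Hectd4). These make 22.2%, 5.56%, 11.1% and 5.56%, beside 18.6%, 0.961%, 2.90% and 3.62% of all protein-coding genes. Among protein-coding genes at least as long as the shortest family member, the shares were 39.0%, 2.90%, 5.59% and 5.56%. The windows of the 18 ligases covered 2.43 Mb, and the part of gene length in their shares was not tested. The CXD101 lost peak counted for Hectd4 lay 48.9 kb from its nearest start site, beyond the end of the gene, and was nearest to the start of Trafd1. At Trip12, with summits 6.09 and 6.04 kb after a start site, the fold was 4.31 with MS-275 (49 tags over 10.6) and 3.56 with CXD101 (39.6 over 10.4). Ube3a, the ligase lost in Angelman syndrome, had a gained peak 145 bp after a start site, with 78.7 MS-275 tags over 34.4.

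Among 12 adaptors and activators, Ndfip2, Arrb2 and Smad7 had MS-275 gained peaks, Smad7 had a CXD101 gained peak and Arrb1 had lost peaks with both inhibitors. These are 25% for MS-275 gained and 8.33% for each of the others, from 1 gene each, beside 18.6%, 0.961%, 2.90% and 3.62% of all protein-coding genes. Ndfip2, a membrane protein that recruits and activates the family, gained signal 131 bp after its start with MS-275 (108 tags over 53.8, a fold of 1.98). In its intron, MS-275 exceeded CXD101 with 68.6 tags over 20.6, a fold of 3.22. Smad7, which brings the Smurf proteins to TGF-beta receptors, had peaks about 3.89 kb before a start site with folds of 2.57 for MS-275 (76.1 over 29.0) and 2.51 for CXD101 (73.9 over 28.8). At Arrb1, which encodes a beta-arrestin, the vehicle tags at the lost summits were 32 to 37, with folds from 2.19 to 2.62.

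Among 15 known substrates, Cxcr4, Notch1, Jun, Igf1r and Ptch1 had MS-275 gained peaks, which is 33.3% beside 18.6% of all protein-coding genes. Igf1r, a growth factor receptor, held 11 of these 25 peaks and a CXD101 gained peak, where the folds were 4.01 with MS-275 (95.3 tags over 23.0) and 3.44 with CXD101 (71.2 over 20). The CXD101 gained peak makes 6.67% of the 15 genes, beside 0.961% of all protein-coding genes. Igf1r also had a CXD101 lost peak, with a fold of 3.25, and 3.62% of all protein-coding genes had such a peak. Gene length was not taken into account for this list. Ccr2, the substrate that the study examined, had no peak in any list. At Notch1 and Igf1r, MS-275 also exceeded CXD101, with folds from 1.59 to 2.84, and 6.62% of all protein-coding genes had such a peak.

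Ubiquitin, E1 and E2 genes had MS-275 gained peaks at 3 of 13 (Ube2d1, Ube2d3 and Ube2n), or 23.1% beside 18.6% of all protein-coding genes. Of these, the peaks of Ube2d3 and Ube2n were nearer to start sites of Cisd2 and Nudt4. The 13 genes had no peak in the other lists against vehicle. Among all protein-coding genes, 0.961% had a CXD101 gained peak, 2.90% an MS-275 lost peak and 3.62% a CXD101 lost peak. At such shares, the absence of these peaks says nothing about the 13 genes. Among 7 deubiquitinases, Usp7 had MS-275 gained peaks (14.3%) and Usp8, an endosomal enzyme, had MS-275 lost ones with folds of 3.8 and 2.55. These are 1 of 7 genes each, beside 18.6% of protein-coding genes for MS-275 gained peaks and 2.90% for MS-275 lost peaks. No CXD101 peak against vehicle was listed at the 7. With shares of 0.961% for CXD101 gained and 3.62% for CXD101 lost peaks, this absence says nothing about the 7 genes.

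The purity of the sorted cells bears on all these sites, since a change in cell mixture and a change within cells cannot be told apart in pooled nuclei. The methods of the study state a high purity for the sort, which could not be checked here. The lists hold differences, so the identity of the cells could not be read from them. Peaks of MS-275 over vehicle were listed at 4 of 7 monocyte markers (Ly6c2, Itgam, Lyz2 and Fcgr1), 5 of 7 neutrophil markers, 4 of 7 macrophage markers, 4 of 7 T cell markers, 0 of 5 B cell markers, 1 of 4 NK cell markers, 1 of 6 hepatocyte markers and 0 of 5 erythroid markers, beside 18.6% of all protein-coding genes. Lost peaks of both inhibitors were listed at Itgam among the monocyte markers and at Cd3g among the T cell markers, and at no other marker. All of them lay beyond the end of the gene. Those of Itgam were 66.5 kb from its nearest start site and nearest to the start of Itgax. Those of Cd3g were 20 kb from its nearest start site and nearest to the start of Ube4a. Among all protein-coding genes, 2.90% had an MS-275 lost peak and 3.62% a CXD101 lost peak. Some of the markers share a peak, as S100a8 and S100a9 do, and likewise Cd3e, Cd3d and Cd3g. No marker of the 8 lists had a CXD101 gained peak, and only 0.961% of all protein-coding genes had one. Ly6g, the antigen used to exclude neutrophils in the sort, had 3 MS-275 gained peaks, and 10 lay at Mpo. The part of other cell types in the family's peaks was not tested.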

How the data were processed

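ATAC-seq libraries of 3 groups of 2 were grouped by their treatment label. Per the submitters' processing notes, reads were aligned with Bowtie2 to mm10 and peaks were called with MACS2 (version 2.2.7.1). The authors pooled the libraries of a group and called peaks with another group as control. The methods give a shift of 0, so summits are not moved to the transposase cut site. The deposited values are the fold enrichment (a linear ratio of pileups at the summit), the −log10 p-value and −log10 q-value, an integer score that was not used in any result, and the position of the summit as an offset from the start of the peak. Intervals with several summits count 1 peak per summit. No deposited peak had a q-value above 0.05, whereas a p-value limit is named in the methods, and peaks spanned 200 bp or more.

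Tags and control levels were solved from each fold enrichment and p-value with a pseudocount of 1, taking the treated pileup as a whole number of tags (within 0.002) times a scaling factor. All 11800 peaks were solved. The recovery was tested on 500 simulated peaks per list for the 5 longer lists, of which 99.6 to 100% were recovered. The control level is an upper estimate. Reads per library are not given in the sources used here, so depth is known only as a ratio between groups. Motifs, GC content and CpG ratio (the CpG count over that given by the C and G counts) were taken within 100 bases of summits from GRCm38, and promoters from RefSeq.

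Every member was named with its peaks, and for a member with more than 5 peaks in a list the most significant peak, the one nearest to a start site and the range. Genes of the other lists were named where they had a peak against vehicle. Some results for genes of the substrate list are not reported here. The members, lists and motifs were chosen with earlier results of these data known. No p-value across peaks was computed. Alternatives were stricter q-value and fold limits, other windows, intervals, nearest start sites, other gene backgrounds, a pseudocount of 0 and a narrower motif window. Computations used Python 3.11.15, scipy 1.17.1 and pysam 0.24.0.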

Additional observations from a re-analysis of the deposited data

Results flagged for a closer look

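The direct comparison of the inhibitors differed at 2 members. At Nedd4, the fold enrichment of MS-275 over CXD101 was 1.77, with its summit 283 bp before the gene start. At Wwp2, it was 1.66, at the site 67.1 kb into the gene. Each difference rests on the authors' test of the pooled libraries, without a replicate check, and the cause of neither was tested. A q-value under 0.01 left 1 of the 2 members, without Nedd4 (−log10 q-value 1.48), and a fold of at least 2 left 0.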

How the results depend on the processing

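No paired analysis was possible because the peaks were called on pooled libraries, and for the same reason no library could be left out. Of 118 alternative values, 92 stayed within 1.5 times the reported one. Some of the 92 were 0 beside a reported 0, as for all values of CXD101 over MS-275 and for motifs without a match. A stricter setting could not have moved these. With the gene body alone as window, the family had 7 MS-275 gained peaks, 0 CXD101 gained peaks at 0 members and 1 peak of MS-275 over CXD101 at 1 member. The peaks before the start of Nedd4 and Wwp2 and those beyond the end of Hecw2 lie outside the gene body. Counting intervals left 1 MS-275 lost peak, and a window of 50 kb gave 2 CXD101 lost peaks. For MS-275 over CXD101, a q-value under 0.01 left 1 peak at 1 member and a fold of at least 2 left 0 at 0. Over all annotated genes, the share with a gained peak was 13.3% (MS-275) and 0.693% (CXD101), the share with a lost peak 1.90% (MS-275) and 2.27% (CXD101), and that of MS-275 over CXD101 4.57%. Over protein-coding genes at least as long as the shortest member, a choice made after seeing the data, these shares were 39.0%, 2.90%, 5.59%, 5.56% and 12.2%. A pseudocount of 0 reproduced 1.01% of the 3670 peaks tried. With 50 bases on either side, the motif share over the 16 distinct summits of the family fell from 43.8% to 18.8% for the GC box, from 18.8% to 0% for the CCAAT box, from 18.8% to 6.25% for the AP-1 motif and from 25% to 6.25% for the RUNX motif.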
